A study of Mus musculus with 4 samples.

Results

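The 10 genes examined here arrest the cell cycle, restrain that arrest (Mdm2) or serve as markers of cellular senescence. They are Trp53, Mdm2, Cdkn1a, Cdkn1b, Cdkn2a, Cdkn2b, Cdkn2c, Rb1, Lmnb1 and Glb1, chosen by name from the 21951 protein-coding genes of the annotation. The data are RNA polymerase II (Pol II) ChIP-seq peak lists from brain endothelial cells (ECs), in which a peak is a stretch of the genome where Pol II-bound fragments pile up above the local background. Each gene was read in every library for peaks in its promoter (within 1500 bp of any of its annotated transcription start sites, TSS), in the rest of its body, and within 50 kb on either side. Both groups carried the tamoxifen-inducible Cdh5-CreERT2 driver, which recombines in ECs, and both received tamoxifen. The old WT Cre group (2 libraries, labelled CdH5CRE, 20 to 23 months of age) kept Klf4, and the young EC-K4KO group (2 libraries, 4 to 6 months) had Klf4, an endothelial transcription factor, deleted in ECs. Their libraries are called old1, old2, young1 and young2 below, by group and replicate number. Genotype and age differ together between the groups and cannot be told apart. The study's methods call the ChIP-seq replicates biological, but the labels do not say whether a library came from 1 animal or several. How much of the spread between libraries is technical is therefore not known.

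Senescent cells leave the cell cycle for good. DNA damage stabilises p53 (Trp53), which MDM2 otherwise marks for degradation, and p53 switches on Cdkn1a, whose product p21 inhibits cyclin-dependent kinases (CDKs). The INK4 proteins p16 (Cdkn2a), p15 (Cdkn2b) and p18 (Cdkn2c) block CDK4 and CDK6, so that RB1 stays unphosphorylated and holds E2F target genes silent, while loss of lamin B1 (Lmnb1) and raised lysosomal beta-galactosidase (Glb1) are used to recognise the state. A Pol II peak records polymerase on the gene, paused or elongating, and is not a transcript level.

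The libraries were unequal. The peak caller counted 65734178 and 27455452 fragments for old1 and old2, and 35227929 and 22705175 for young1 and young2. The lists held 78851, 39674, 35638 and 235591 peaks in the same order, so young2 had the fewest fragments and the longest list. Peak height is given as the pileup, the number of fragments covering the summit, for every 1000000 fragments of its library (FPM). The tallest pileup alone equalled 14.6% and 15.3% of the fragments in old1 and old2, and 3.36% and 1.73% in young1 and young2. Such fragments enter the divisor, so FPM heights of different libraries are not strictly comparable. The lowest called peak stood at 0.198 and 0.291 FPM in old1 and old2 and at 0.255 and 0.308 FPM in young1 and young2, so a gene without a called peak has no value and is not at 0. Every count below is therefore given per library. The tissue label was read from promoter peaks at marker genes: of 8 endothelial markers, 3, 4, 0 and 5 had one in old1, old2, young1 and young2. Pecam1, Tek and Esam had none in any library. Of 6 markers each, pericyte and smooth muscle genes had 2, 0, 2 and 3, astrocyte genes 2, 1, 1 and 3, microglial genes 3, 1, 0 and 5, oligodendrocyte genes 1, 0, 1 and 5, and neuronal genes 0, 1, 1 and 4. A promoter peak was found at 25.6%, 24.5%, 10.6% and 67.5% of all genes in the 4 libraries, and what the marker counts say of cell types was not tested. The part of other cells in the results below was not tested. Klf4 itself had promoter peaks of 0.426 and 0.881 FPM in young1 and young2 and none in the old WT Cre libraries. Polymerase at that promoter does not measure the Klf4 transcript and so checks no genotype.

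Every member had a promoter peak in at least 1 library, where 25.4% of all protein-coding genes had none. All 10 had one in young2, and 5 of them (Trp53, Mdm2, Cdkn1a, Cdkn2b and Rb1) had one in no other library. Among all protein-coding genes, 67.5% had a promoter peak in that library and 30.5% had one there alone. Old1 had promoter peaks at 4 of the genes (Cdkn2a, Cdkn2c, Lmnb1 and Glb1), where 25.6% of all genes had one. Old2 had them at 3 (Cdkn1b, Cdkn2c and Lmnb1), against 24.5% of all genes, and young1 at Cdkn1b alone, against 10.6%. The members' counts followed the order of the libraries' shares, and none is read as particular to the members. Cdkn2c and Lmnb1 had a promoter peak in both old libraries, which 10.1% of all genes did. Cdkn1b was the 1 member with a promoter peak in both young libraries, which 9.14% of all genes had. No member had a promoter peak in both libraries of one group and in neither of the other, a pattern that 0.784% of all genes showed on the old side and 3.12% on the young side. No member had one in all 4 libraries (2.22% of all genes), so with these TSS no promoter height could be tested between the groups. With 2 libraries against 2, an exact permutation test could in any case give no p below 0.3333.

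**Figure D1:**
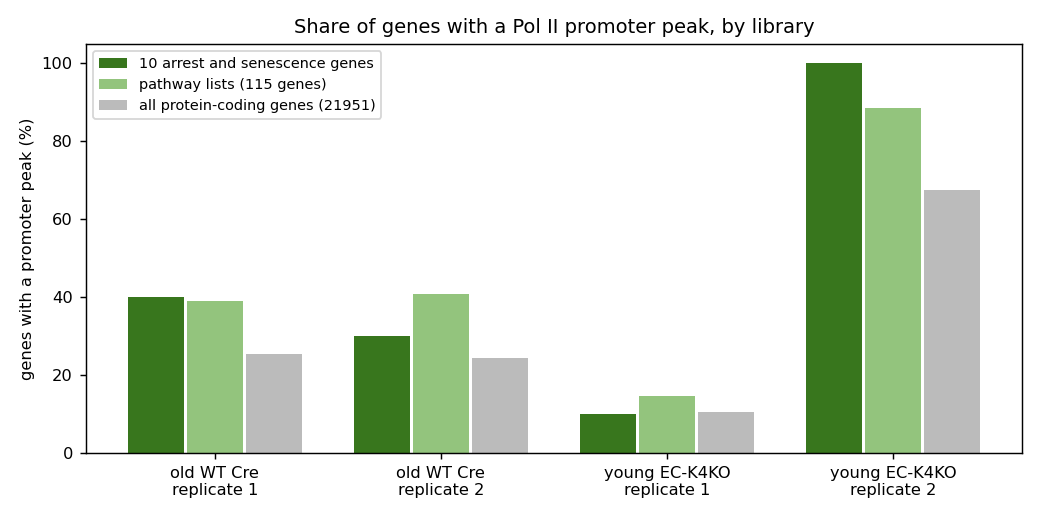
Percentage of genes with a Pol II promoter peak in each of the 4 libraries (bars from 0), for the 10 arrest and senescence genes, for 115 genes of their pathways and for all 21951 protein-coding genes. Young2 stands highest in all 3 gene sets, at 67.5% of all genes, and young1 lowest, at 10.6%.

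**Figure D2:**
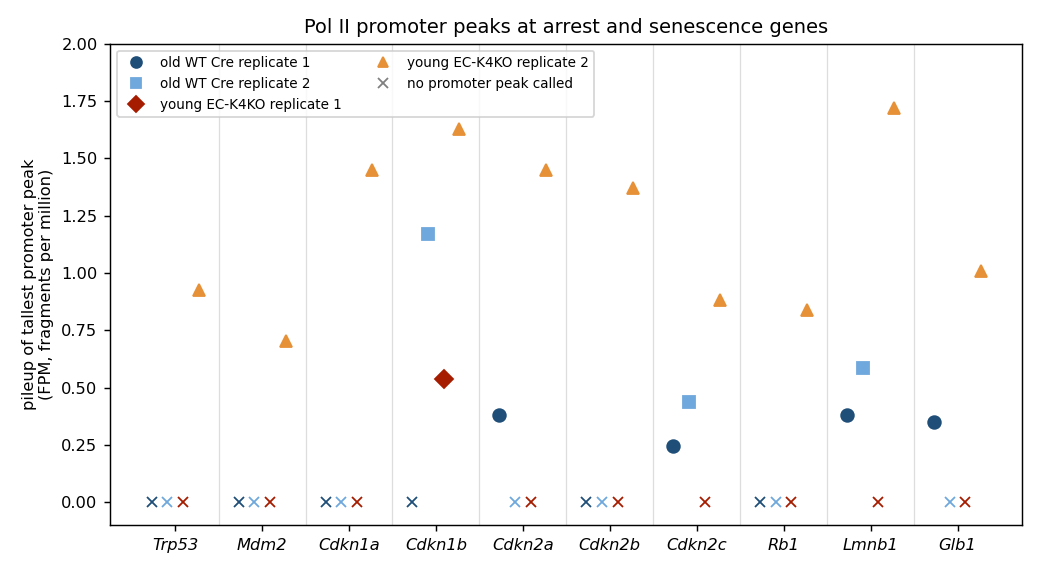
Pileup of the tallest promoter peak of each gene, in FPM (vertical axis), for the 4 libraries (coloured symbols). A cross at 0 marks a gene with no called promoter peak, which has no value. Every gene has a triangle for young2, between 0.705 and 1.72 FPM, and 5 genes have crosses for the other 3 libraries.

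Trp53, Mdm2 and Cdkn1a each had a promoter peak in young2 alone, as did 30.5% of all genes. Trp53 lies on chromosome 11 (mm10, 69580359 to 69591873, plus strand). Its promoter peak in that library stood at 0.925 FPM, 5.48-fold over the local background, with its summit 1162 bp downstream of the nearest TSS, in intron 1. This height was at percentile 60.7 of the genes with a promoter peak in the same library. The other 3 libraries had no promoter peak. Within the gene, old2 had 1 peak, in intron 10 at 0.473 FPM, and young2 had peaks over coding exons at 0.969 and 0.529 FPM, none of which overlapped between libraries. The surroundings of Trp53 are gene-dense, with 7 other coding genes starting within 50 kb, and 6 flanking regions had peaks in 2 libraries each. Of these, 4 lay at the promoters of Atp1b2, Shbg and Fxr2, and no peak recurred within Trp53 itself.

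Mdm2, the ubiquitin ligase that restrains p53 and is itself a p53 target, is on chromosome 10 (117688875 to 117710758, minus strand). Its promoter peak in young2 reached 0.705 FPM, 4.79-fold, the lowest promoter height of the 10 genes in that library and at percentile 31.7 of its promoters. The summit was 746 bp downstream of the TSS. Mdm2 differed from Trp53 in its body, where 2 regions had peaks in more than 1 library. In intron 10, old1 (0.411 FPM) and young2 (1.01 FPM) had summits 2 bp apart. Over a coding exon, old2 (0.401 FPM) and young2 (0.44 FPM) had summits 17 bp apart. Each region thus had 1 library of each group. The intron 10 region is shown because its summits nearly coincide. In it 94.4% of the bases are repeat-masked in the genome as copies of a repeat, and the part of repeat copies in the signal was not tested. It is chr10:117691854-117692084 (mm10, minus strand), and capitals mark the bases under the peaks of both libraries.
Mdm2 intron 10: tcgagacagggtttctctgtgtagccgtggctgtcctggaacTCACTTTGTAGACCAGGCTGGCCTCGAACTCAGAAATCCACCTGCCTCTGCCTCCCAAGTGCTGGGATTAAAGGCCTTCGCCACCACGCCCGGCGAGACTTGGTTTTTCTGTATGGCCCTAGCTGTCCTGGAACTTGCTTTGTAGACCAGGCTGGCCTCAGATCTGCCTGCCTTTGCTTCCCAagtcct

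Cdkn1a, the p53 target that encodes p21, is on chromosome 17 (29090976 to 29100727, plus strand) and has 4 annotated TSS. Young2 had 3 promoter peaks, which stood apart along the gene. The tallest, 1.45 FPM and 6.41-fold (percentile 95 of promoters in that library), had its summit 599 bp downstream of the first TSS, in intron 1. The other peaks, each 0.969 FPM, lay 939 bp upstream and 149 bp downstream of the most downstream TSS. Old1, old2 and young1 had no peak in the promoter or in the body of Cdkn1a. Outside the gene, old1 had 4 peaks within 50 kb (2 of them at Rab44 promoters), old2 had 1 and young1 had none. No region at or around Cdkn1a had a peak in 2 libraries, while each of the other genes had at least 1 such region. How often this holds among all genes was not counted, so it is not read as particular to Cdkn1a. The upstream promoter of Cdkn1a is shown because Cdkn1a is a p53 target. It holds a 20-base match to the p53 consensus (a pair of adjoining half-sites) with 1 mismatch, starting 51 bases before the RefSeq TSS, found in 14 of 21263 RefSeq promoters of 300 bases (0.0658%). The sequence is from RefSeq (GRCm38.p6, the same coordinates as mm10), chr17:29090729-29091008, plus strand, with the match in capitals. No library had a peak over these 280 bases, the tallest Cdkn1a peak beginning downstream of them.
Cdkn1a upstream promoter: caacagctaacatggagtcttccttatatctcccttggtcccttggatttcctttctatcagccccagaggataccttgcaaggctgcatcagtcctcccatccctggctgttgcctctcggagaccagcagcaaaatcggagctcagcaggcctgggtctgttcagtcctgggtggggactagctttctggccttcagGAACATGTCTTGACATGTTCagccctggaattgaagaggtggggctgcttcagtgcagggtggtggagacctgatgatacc

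Cdkn1b, which encodes the CDK inhibitor p27, had the most repeatable promoter signal of the 10 genes together with Lmnb1. It is on chromosome 6 (134920401 to 134925513, plus strand). No promoter peak was called in old1, the most deeply sequenced library. The pileup of the tallest promoter peak was 1.17 FPM in old2, 0.539 in young1 and 1.63 in young2, at percentiles 99.4, 87.4 and 97.6 of the promoters with a peak in each library. The libraries with a peak thus came from both groups. A promoter peak in 3 or more libraries was found for 13.1% of all genes, and Cdkn1b, Cdkn2c and Lmnb1 were the members that had one. The same place carried the signal: peaks of the 3 libraries shared 157 bp, chromosome 6, 134920656 to 134920812, in an untranslated part of an exon. The summits in old2 and young2 were 51 and 50 bp downstream of the nearest TSS, 1 base apart on the genome, and that of young1 was 234 bp downstream. At this shared place young2 stood at 1.06 FPM, and the heights there are not put in order between old2 and the young libraries. The tallest peak of young2 was a second one, 1578 bp downstream of the nearest TSS. All 3 libraries kept a Cdkn1b promoter peak at q of at most 1e-05, where q is the caller's false discovery rate.

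The Cdkn1b promoter is shown because its peak recurred in 3 libraries. The RefSeq sequence is chr6:134920151-134920430 (GRCm38.p6, plus strand), ending 30 bases into the gene. Capitals mark a GC box (GGGCGG) and a pair of CCAAT boxes (CCAAT), searched on both strands. Of all 21263 RefSeq promoters of 300 bases, 46.2% held GGGCGG and 38.2% held CCAAT. The peak of young2 covers all 280 bases, and the peaks of the other libraries begin downstream of them.
Cdkn1b promoter: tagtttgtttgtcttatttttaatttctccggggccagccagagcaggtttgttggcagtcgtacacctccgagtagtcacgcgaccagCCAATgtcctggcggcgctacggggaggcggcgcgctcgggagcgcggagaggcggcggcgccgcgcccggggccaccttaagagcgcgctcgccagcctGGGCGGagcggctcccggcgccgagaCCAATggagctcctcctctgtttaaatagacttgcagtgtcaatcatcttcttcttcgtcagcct

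The INK4 locus on chromosome 4 holds Cdkn2b (89306299 to 89311039, minus strand) and, downstream of it, Cdkn2a (89274471 to 89294653, minus strand). Cdkn2a makes 2 proteins from separate promoters: the upstream one gives ARF, which inhibits MDM2, and the downstream one gives p16. The p16 promoter had a peak in old1 at 0.38 FPM, 4.88-fold, and in young2 at 1.45 FPM, 14.2-fold. Old2 and young1 had none, so the peak was found in 1 library of each group. Its fold enrichment in young2 was the highest of any member promoter in any library. The summits lay 134 and 144 bp downstream of the p16 TSS, 10 bp apart, within the coding part of its first exon, and the peaks shared 177 bp.

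The ARF promoter had peaks in young2 alone, at 0.837 and 0.705 FPM, with summits 125 and 568 bp upstream of the TSS. In the Cdkn2a body old1 and old2 had overlapping peaks in intron 2, at 0.274 and 0.328 FPM, whose summits were 265 bp apart and which shared 20 bp. Young2 had 1 body peak, 0.925 FPM, at another place in that intron. Cdkn2b, which encodes p15, had a promoter peak in young2 alone, 1.37 FPM and 10.6-fold (percentile 92.7), with its summit 308 bp downstream of the TSS in a coding exon, and no library had a peak in the rest of its body. Young1 had no peak in either gene. The regions where young1 and young2 had peaks lay in the flanks, 55851 and 43075 bp downstream of the p16 TSS in young1, and 38752 bp upstream of Cdkn2b. In the order given, 92.1%, 78.6% and 12% of the bases are repeat-masked.

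**Figure D3:**
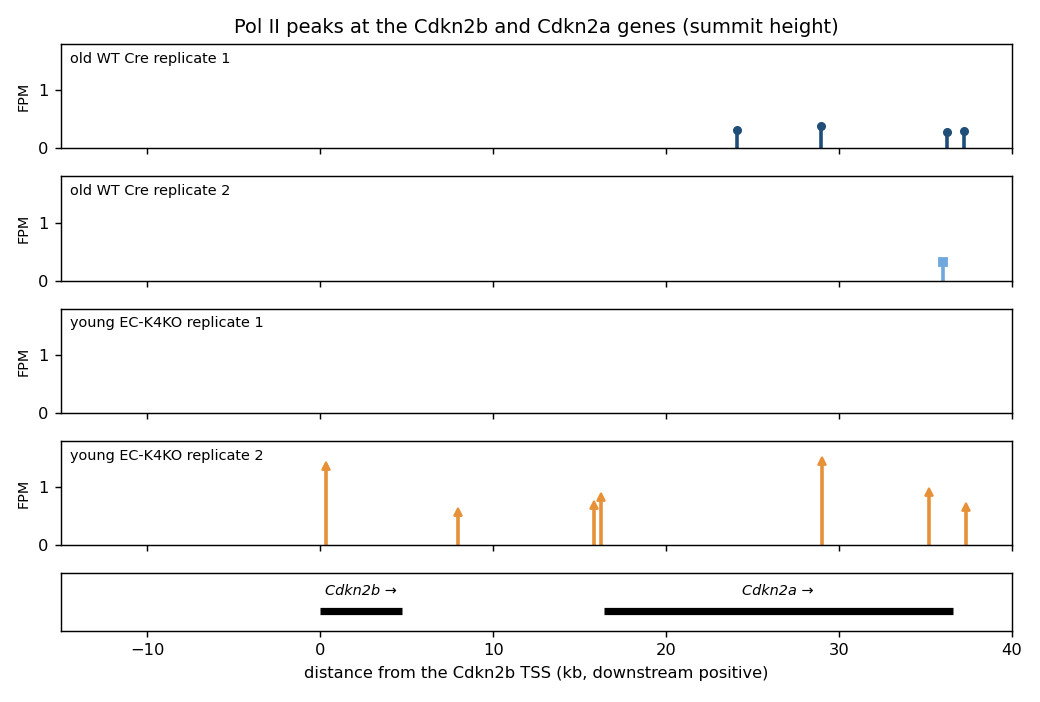
Summit heights (FPM) of peaks across Cdkn2b and Cdkn2a, with position as distance from the Cdkn2b TSS in kb and 1 panel for each library. Black bars mark the genes, and arrows their direction. The p16 promoter peak, 28981 bp from that TSS in old1, appears there and, higher, in young2, and the panel of young1 is empty.

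Sequences of this locus are shown at the places of these peaks. The first is the coding part of the p16 first exon, chr4:89281986-89282111 (mm10, minus strand), with capitals for the 11 bases from one summit to the other. The second is the RefSeq ARF promoter, chr4:89294590-89294869 (GRCm38.p6, minus strand), which the peak of young2 covers in full. Its capitals mark 2 GC boxes (GGGCGG) and 1 E2F motif (TTCCCGC, searched with TTGGCGC on both strands). One or the other E2F spelling was in 8.69% of all RefSeq promoters, and in those of Cdkn2a and Cdkn2c among the 8 members searched, which leave out Rb1 and Lmnb1. Its G and C content was 77.0%, at percentile 96.8 of all promoters, whose median was 56.3%.
Cdkn2a p16 exon: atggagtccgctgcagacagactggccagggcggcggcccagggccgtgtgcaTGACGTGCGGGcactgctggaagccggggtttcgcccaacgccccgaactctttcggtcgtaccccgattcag
Cdkn2a ARF promoter: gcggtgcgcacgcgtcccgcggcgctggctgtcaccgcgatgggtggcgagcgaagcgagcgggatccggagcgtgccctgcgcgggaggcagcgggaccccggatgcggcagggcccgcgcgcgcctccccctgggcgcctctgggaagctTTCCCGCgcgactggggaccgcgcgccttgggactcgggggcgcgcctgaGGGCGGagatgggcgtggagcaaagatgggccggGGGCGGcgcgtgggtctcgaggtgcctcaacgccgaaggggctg

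Cdkn2c, which encodes p18, had promoter peaks in 3 libraries, at no place common to all 3. It is on chromosome 4 (109660876 to 109667189, minus strand), far from the locus above. The pileup was 0.243 FPM in old1, 0.437 in old2 and 0.881 in young2, at percentiles 8.3, 30.6 and 55.2 of each library's promoters, and no peak was called in young1. The old WT Cre peaks were at different places, 866 and 271 bp downstream of the first TSS, and did not overlap each other. Each overlapped a separate peak of young2. At q of at most 1e-05 only the latter library kept a Cdkn2c promoter peak. Outside the gene, 1 region had peaks in both old libraries (0.365 and 0.583 FPM) and in young2 (0.705 FPM), with summits 7953 to 8219 bp downstream of the nearest TSS. Another group of peaks in the same 3 libraries lay at the Faf1 promoter.

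Rb1, the substrate that the INK4 proteins protect from phosphorylation, had a promoter peak in 1 library and body peaks in all 4. It is on chromosome 14 (73183673 to 73325822, minus strand), the longest of the 10 genes. The promoter peak, in young2 alone, stood at 0.837 FPM and 8.05-fold, with its summit 34 bp downstream of the TSS. Body peaks numbered 6 and 6 in old1 and old2, and 1 and 7 in young1 and young2. Old1 and old2 had 3 of these regions in common. In intron 20 their summits were 1 bp apart, at 0.502 and 0.801 FPM, and in intron 17 they were 22 bp apart, at 0.335 and 0.983 FPM. The third, also in intron 17, had summits 164 bp apart at 0.289 and 0.401 FPM. Neither young EC-K4KO library had a peak at these 3 places. Of all regions with peaks in at least 2 libraries, 10.7% genome-wide were of the old WT Cre libraries alone. Repeat-masked bases made up 38.1%, 93.1% and 50.1% of the regions in the order given, and the part of repeats in the shared calls was not tested. Another region, in intron 13, had peaks in old2 (0.437 FPM) and young2 (0.484 FPM) and no masked bases.

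**Figure D4:**
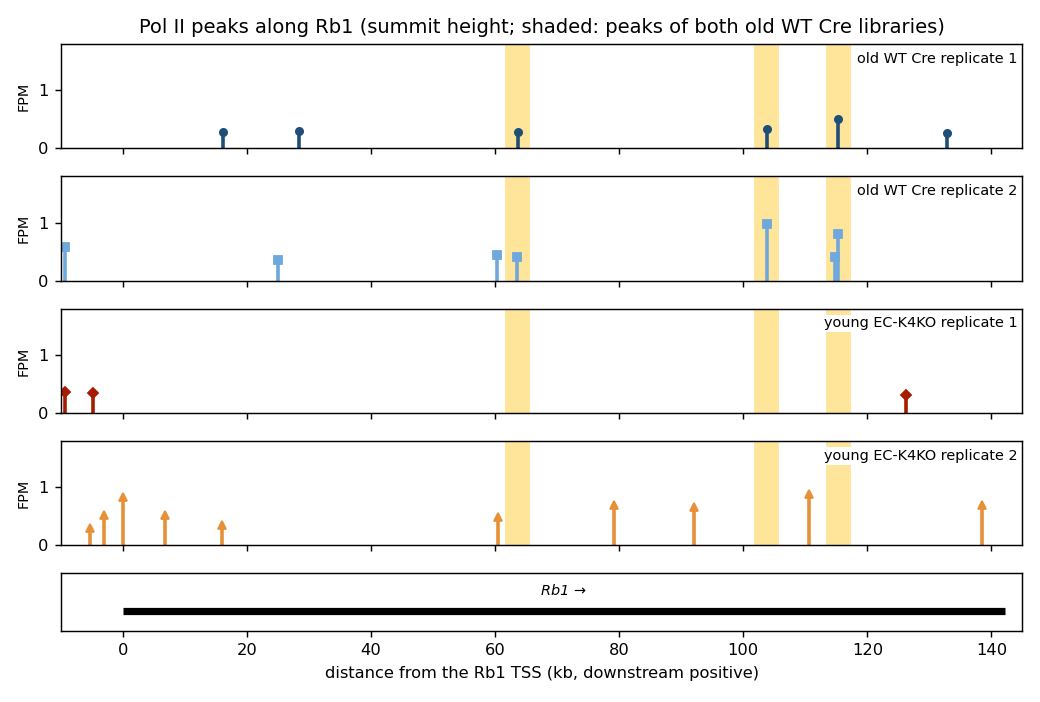
Summit heights (FPM) of peaks along Rb1, by distance from its TSS in kb, with 1 panel for each library. The black bar marks the gene. Shading marks the 3 body regions where both old libraries had a peak, and no peak of the young EC-K4KO libraries falls on those regions.

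The Rb1 regions are shown for what they are made of. Each is given on the minus strand of mm10, with capitals for the bases under the peaks of both libraries: intron 20 at chr14:73210330-73210552, intron 17 at chr14:73221951-73222154 and intron 13 at chr14:73265303-73265553. The intron 20 region contains a run of GT repeats. The intron 13 region, though not repeat-masked, repeats itself with a period of 13 bases, at which 64.3% of its bases match.
Rb1 intron 20: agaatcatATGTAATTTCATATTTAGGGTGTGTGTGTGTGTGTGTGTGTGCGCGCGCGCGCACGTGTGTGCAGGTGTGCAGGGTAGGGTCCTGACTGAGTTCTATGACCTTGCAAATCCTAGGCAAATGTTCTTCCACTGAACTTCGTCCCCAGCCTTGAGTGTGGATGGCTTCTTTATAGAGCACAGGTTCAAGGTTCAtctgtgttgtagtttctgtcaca
Rb1 intron 17: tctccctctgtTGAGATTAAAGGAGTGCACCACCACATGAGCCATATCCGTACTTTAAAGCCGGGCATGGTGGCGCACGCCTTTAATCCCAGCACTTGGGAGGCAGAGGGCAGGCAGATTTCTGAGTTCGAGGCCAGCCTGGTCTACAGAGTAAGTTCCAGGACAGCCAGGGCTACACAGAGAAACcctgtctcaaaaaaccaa
Rb1 intron 13: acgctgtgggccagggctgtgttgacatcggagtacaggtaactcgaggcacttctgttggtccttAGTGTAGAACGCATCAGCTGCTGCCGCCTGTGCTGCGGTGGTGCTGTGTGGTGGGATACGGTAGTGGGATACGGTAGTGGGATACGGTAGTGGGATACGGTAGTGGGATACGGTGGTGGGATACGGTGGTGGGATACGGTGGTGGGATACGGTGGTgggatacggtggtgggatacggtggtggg

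Glb1, the lysosomal beta-galactosidase behind the common staining for senescent cells, had promoter peaks in 1 library of each group. It is on chromosome 9 (114401076 to 114474898, plus strand) and shares its promoter window with Tmppe. In old1 the peak stood at 0.35 FPM, 4.28-fold, with its summit 1000 bp upstream of the TSS. In young2 it stood at 1.01 FPM, 5.62-fold, 373 bp downstream, and the peaks did not overlap. Old2 and young1 had no peak in the promoter or body. Body peaks numbered 3 in old1 and 11 in young2, all in introns, and none overlapped between them. Glb1 thus had 1 region with peaks in 2 libraries, beyond its 3′ end.

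**Figure D5:**
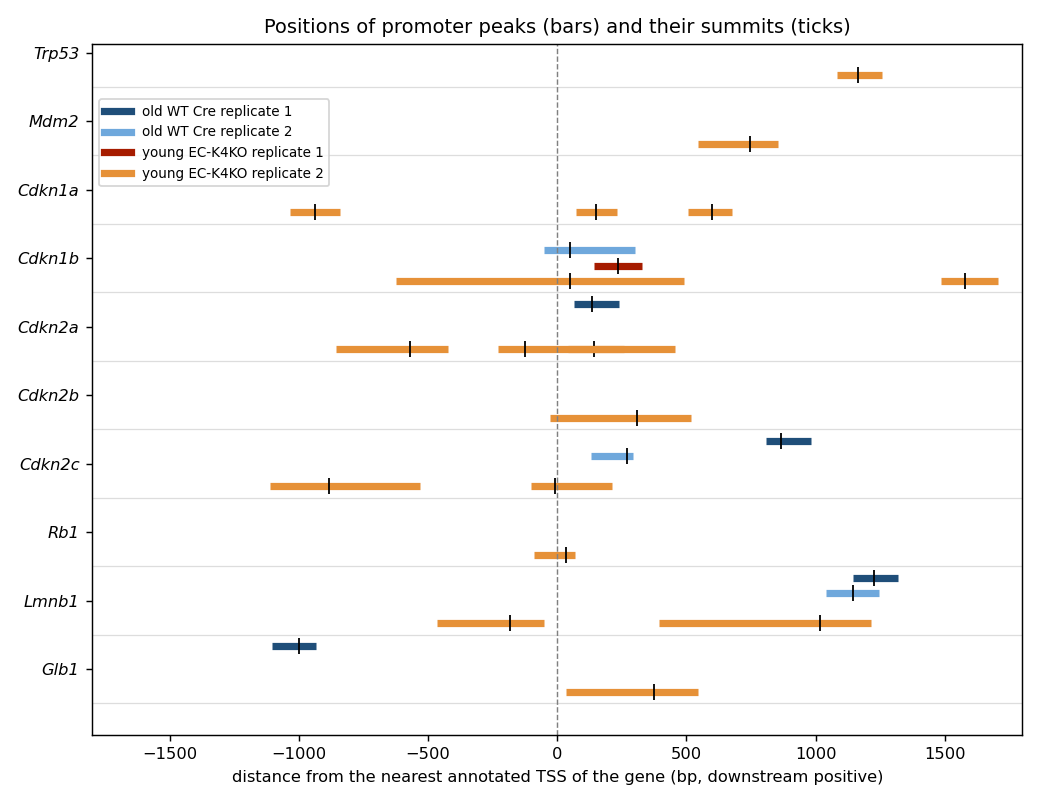
Promoter peaks of the 10 genes as bars, with ticks at their summits, by distance in bp from the nearest annotated TSS of the gene (dashed line, downstream positive) and coloured by library. At Cdkn1b and Lmnb1 the bars of 3 libraries overlap, and at Glb1 they lie apart. Peaks of genes with several TSS are drawn from the nearest one, so that Cdkn2c peaks that overlap on the genome can appear apart.

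Lmnb1, a structural protein of the nuclear lamina, was the gene with promoter peaks at 1 shared place in both old libraries. It is on chromosome 18 (56707813 to 56753424, plus strand). The pileup was 0.38 FPM in old1, 0.583 in old2 and 1.72 in young2, at percentiles 75, 76.3 and 98.4 of each library's promoters. The last was the tallest promoter peak of any member. Young1 had no peak in the 1500 bp window. The shared signal was not at the TSS but in intron 1, with summits 1224, 1146 and 1018 bp downstream and 72 bp common to the 3 peaks. Young2 had a second peak 182 bp upstream of the TSS at 1.06 FPM. All 3 libraries kept the promoter peak at q of at most 1e-05. When the TSS of every GENCODE transcript was used, a choice made after the data were seen, a peak of young1 at 0.312 FPM also counted as a promoter peak. That peak lay 19414 bp downstream of the first TSS, at another place than the signal of the other libraries. A permutation test of the heights run with this choice sets different places side by side, so nothing is read from it. Lmnb1 body peaks numbered 2, 3, 1 and 4 in the 4 libraries. In its flank, 23457 to 23515 bp upstream, both old libraries (0.502 and 0.619 FPM) and young2 (0.793 FPM) had a peak in a region that is 100% repeat-masked.

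Over the bodies of the 10 genes, 15, 12, 2 and 32 peaks were called in old1, old2, young1 and young2. They fell in 5, 5, 2 and 7 of the genes, where 46.7%, 32.9%, 26% and 68.8% of all genes had a body peak. Mdm2, Cdkn2a, Rb1 and Lmnb1 had a body peak in both old libraries (26.9% of all genes), and Rb1 and Lmnb1 in both young libraries (24.8%) and so in all 4 (15.8%). No member had body peaks in both old and neither of the young libraries (0.501% of all genes). Per 100 kb of gene, the members had 4.4, 3.52, 0.586 and 9.38 body peaks and all genes had 3.2, 1.48, 1.18 and 9.36. The members thus stood above all genes in both old libraries, below them in young1 and level with them in young2. Rb1 alone held 6 of the 15, 6 of the 12, 1 of the 2 and 7 of the 32 member peaks. In the flanks, 45, 24, 19 and 123 peaks were called, each counted once, and 10, 9, 7 and 10 of the genes had at least 1, against 92.8%, 82.1%, 71.7% and 99.1% of all genes. Of the flanking peaks, 7, 6, 0 and 21 lay at the promoter of another coding gene, a share that was not counted over all genes.

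Peaks of the 10 genes were seldom found again in the other replicate. Of 64 distinct member peaks in old1, 12 (18.8%, 95% exact Clopper-Pearson interval 10.1 to 30.5%) overlapped a peak of old2, against 13.1% of all peaks of that library. The share was 30.8% of 39 in old2 (17.0 to 47.6%, all peaks 26.3%). In young1 it was 27.3% of 22 (10.7 to 50.2%, all peaks 29.7%) and in young2 it was 3.49% of 172 (1.29 to 7.44%, all peaks 4.47%). In every library the interval for the members included the share of all peaks. The intervals cover counting error only. At and around the 10 genes, 44 distinct regions had peaks in 2 or 3 libraries, and 30 of these (68.2%) joined libraries of both groups. Over the whole genome 76.5% of 42111 such regions did. Regions of the old WT Cre libraries alone were 9 (20.5%, against 10.7% genome-wide), and those of young EC-K4KO alone were 5 (11.4%, against 12.8%). Young2, with its long list, took part in 29 of the 30. Of the 9 regions, 7 were at least 50% repeat-masked, as were 3 of the 5 and 4 of the 30 found in both groups. Genome-wide, the masked shares were 69.1%, 36.9% and 39.6% in the same order, and the part of repeats in these calls was not tested. Repeat-masked bases made up 41.6%, 28.9%, 53.3% and 21.3% of the members' peaks in the 4 libraries and 44.6%, 49.8%, 44.6% and 31.1% of all peaks.

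The wider pathway was read in 7 lists holding 115 genes that were found in the annotation. A promoter peak was present at 45 (39.1%) and 47 (40.9%) of them in old1 and old2, and at 17 (14.8%) and 102 (88.7%) in young1 and young2. In both old libraries 23 had one (20%, against 10.1% of all genes) and in both young libraries 17 (14.8%, against 9.14%). Against all genes, the shares of the pooled lists were higher in each library, with young2 again the highest and young1 the lowest. Of the pathway genes, 7 (6.09%, against 2.22% of all genes) had a promoter peak in all 4 libraries, and 1 did at q of at most 1e-05. The share of all genes at that q was not counted. Among p53 targets the 7 included Gadd45a, a growth arrest gene, with 0.289, 0.546, 0.397 and 0.705 FPM, Ei24 with 0.289, 0.401, 0.312 and 0.661, and Rrm2b, a subunit of ribonucleotide reductase, with 0.335, 0.401, 0.369 and 0.793. The kinase gene Cdk6, which the INK4 proteins inhibit, had 0.426, 0.656, 0.511 and 1.1 FPM. The others were Lin52, of the DREAM repressor complex, Suz12, of Polycomb complex 2, and Syne2, which ties the nucleus to the cytoskeleton, with 0.228 to 0.837, 0.274 to 0.881 and 0.35 to 1.37 FPM. In all 7 the highest value was that of young2, and that of young1 lay between the values of old1 and old2, which is also the order of the median height of all peaks in the libraries (0.319, 0.473, 0.397 and 0.573 FPM in old1, old2, young1 and young2).

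By list, the p53 regulators had a promoter peak at 7, 8, 2 and 15 of 15 genes in the 4 libraries, and p53 targets at 11, 12, 4 and 21 of 26. CDKs, cyclins and other CDK inhibitors had 7, 5, 3 and 16 of 16, and pocket proteins, E2F and DREAM genes had 5, 8, 3 and 16 of 18. Genes of the Polycomb system that acts at Cdkn2a, including the opposing demethylase gene Kdm6b, had 4, 2, 3 and 9 of 12. Nuclear lamina genes had 6, 8, 2 and 11 of 12, and lysosomal genes had 5, 4, 0 and 14 of 16. The shares of all genes were 25.6%, 24.5%, 10.6% and 67.5%, and the Polycomb list in old2 (16.7%) and the lysosomal list in young1 (0 of 16) were below them. No gene of any list had a promoter peak in both old libraries and in neither young library, a pattern of 0.784% of all genes. In the opposite direction there were 3. Cdk2, the kinase that p21 and p27 inhibit, had 0.426 and 0.837 FPM in young1 and young2, Ccna2, its cyclin partner, had 0.341 and 0.617, and Eed, of Polycomb complex 2, had 0.369 and 1.06. At 2.61% of the 115 genes, this pattern was about as frequent as among all genes (3.12%).

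Between the groups, the number of members with a promoter peak was 3.5 ± 0.707 per library for old WT Cre mice (SD, n = 2) and 5.5 ± 6.36 for EC-K4KO mice (SD, n = 2). Body peaks numbered 13.5 ± 2.12 and 17.0 ± 21.2, and flanking peaks 34.5 ± 14.8 and 71.0 ± 73.5, in the same order. All 3 differences (2.0 genes, 3.5 peaks and 36.5 peaks) were smaller than the SD of the young EC-K4KO libraries. Without young2 they turned to -2.5, -11.5 and -15.5. When each list was limited to its 35638 peaks with the lowest q, the length of the shortest list, the differences were 1.0 gene, -3.5 body peaks and -2.5 flanking peaks, so the direction turned in the bodies and flanks. With these lists the members with a promoter peak were 3, 3, 1 and 7, where 11.8%, 22.6%, 10.6% and 27.7% of all genes had one. Young2 then kept Cdkn1a, Cdkn1b, Cdkn2a, Cdkn2b, Cdkn2c, Rb1 and Lmnb1 and lost Trp53, Mdm2 and Glb1. At q of at most 1e-05 with the full lists the counts were 3, 2, 1 and 10, against 15.1%, 13.4%, 3.34% and 57.1% of all genes.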

How the data were processed

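Pol II ChIP-seq peaks of flow-sorted brain ECs were analysed in the 4 libraries of the 2 groups. According to the study's methods the reads were trimmed, aligned to mm10 with Bowtie2 and freed of duplicates. Per the file headers, the authors ran MACS 2.2.7.1 on every library by itself, on paired fragments at q 0.01, with no control library. The deposited tables give each peak's pileup (a coverage signal), fold enrichment (a ratio to nearby coverage in its own library) and −log10 p and q values. Pileup was scaled to 1000000 fragments, as counted in the header (FPM). Genes and TSS came from the GENCODE M21 basic transcripts, and an overlap needed 1 bp. RefSeq promoters (GRCm38.p6) were matched by symbol: 9 of the 10 genes had entries, the 10th being Rb1, and Lmnb1 was left out. The planned test of promoter height needed a peak in all 4 libraries, which no member had with these TSS. Peak classes were tested on simulated peaks with Python 3.11.15, pandas 2.3.3 and scipy 1.17.1. Of 116 pathway genes 115 were matched. Stricter q, fold, windows, list lengths and left-out libraries were tried. The members, pathway lists and markers were chosen with earlier results of these data known, and all 10 members are named, with Klf4, list genes with a promoter peak in all 4 libraries or in 1 group alone, and neighbours holding a described peak.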

Additional observations from a re-analysis of the deposited data

How the results depend on the processing

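The number of members with a promoter peak in both old WT Cre libraries was 2. It was 1 at q of at most 1e-05, at a fold enrichment of at least 4 and with lists of equal length. With a window of 500 bp it was 0. The shares of all genes with a peak in both libraries were not counted under these settings. The number in both young EC-K4KO libraries was 1, and 2 with the TSS of all GENCODE transcripts, an alternative added after the data were seen, which brings in Lmnb1. With lists of equal length the differences between groups (young EC-K4KO minus old WT Cre) in body and flanking peaks changed direction, to -3.5 and -2.5. With 1 library left out, the count for its group is only that of the library that stays. That was 3 to 4 members for old WT Cre and 1 to 10 for young EC-K4KO. The differences then ranged from -2.5 to 6.5 members, -11.5 to 18.5 body peaks and -15.5 to 88.5 flanking peaks. Each was negative only without young EC-K4KO replicate 2. Pathway genes with a promoter peak in all 4 libraries fell from 7 to 1 at q of at most 1e-05, where the share of all genes was not counted. The differences in promoter calls between replicates 1 and 2 correlated at 0.0278 between the groups, over 21951 genes. This does not show whether same-numbered libraries were prepared together. The replicate as a block gives the same differences (2.0, 3.5 and 36.5) by construction in this balanced design and tests nothing. Of 51 alternative values without that block, including those above, 38 kept their direction and stayed within 1.5 times or the spread between libraries. The others were 8 that moved further and 5 that changed direction. Young EC-K4KO replicate 2 widens that spread, and leaving out 1 library cannot move a difference beyond it. The 38 thus do not measure stability. A peak under the lowest pileup called in a library was not detectable, and 2 libraries per group limit every comparison.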
